A study of Mus musculus with 30 samples.

Results

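MOC1E1 is a mouse oral squamous carcinoma line, and the RNA of MOC1E1 tumours grown in mice was compared with the RNA of the same line grown in a dish. The comparison used 6 of the 30 samples of the series: 3 bulk tumour libraries (numbered 1, 2 and 3 after their columns) and 3 culture libraries (S10, S11 and S12). Both deposited tables hold the same 55573 Ensembl genes, and the 15116 genes with at least 1 TPM (a transcript level scaled for gene length and library total) in at least 3 of the 6 libraries were tested. The tumours came from C57BL/6J mice that bore MOC1E1 and received no treatment. The cultured cells, also labelled C57BL/6J and untreated, grew in medium with 5% fetal bovine serum, 5 ng/ml epidermal growth factor (EGF), 400 ng/ml hydrocortisone and, as the label writes it, 5 mg/ml insulin. MOC1, a related line handled the same way with 3 tumours and 3 cultures, was used only to show where MOC1E1 differed. Single-cell libraries of immune cells from other MOC1E1 tumour samples were used only to describe gene levels. They came from mice treated with isotype control, anti-PD1 or anti-CTLA4. The age and sex of the mice, the time of tumour harvest, and whether libraries came from separate animals or dishes are not given in the sources used here.

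Some limits hold for every value below. Tumours and cultures are in separate tables, which are treated as separate batches, and each culture column carries the word plusifng although the labels state no treatment. Tissue, table and that word coincide, so a difference in growth in the animal, in library preparation and in exposure to interferon gamma cannot be told apart. A p-value measures only the spread between libraries, and with TPM alone the read depth is unknown. In bulk tissue, fewer cells of a type and less RNA per cell cannot be told apart either.

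A squamous carcinoma in an animal is a mixture: nests of carcinoma cells with keratins and desmosomes, a matrix of collagens made mainly by fibroblasts, vessels with pericytes, and macrophages, T cells and other leukocytes. In a dish only the carcinoma cells are present, dividing in rich medium. Interferon gamma, made mainly by T cells and natural killer cells, acts in part through the factor IRF1 to raise guanylate-binding proteins and antigen presentation genes. Type I interferons act through a separate receptor on a partly overlapping set.

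Tumour tissue and culture differed in most of the transcriptome. By limma with Benjamini-Hochberg adjustment over the tested genes, 79.2% of genes passed an adjusted p of 0.05 and are named called here: 42.2% were higher in tumours and 37.0% lower. The groups did not overlap in 43.5% of genes with tumours higher and in 38.7% with cultures higher. Every count of list members below is to be read against these shares. The median difference over all tested genes was 0.086 on the log2(TPM + 1) scale, the scale of every difference given here, and under median-ratio scaling it moved to −0.14. That scaling made 43.8% of the calls higher in tumours, against 53.3% in the main fit. Past a log2 difference of 3, 3.09% of genes were higher and 2.71% lower.

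The tables also differed in classes of RNA. None of the 1190 microRNA genes was above 0 in any of 6 tumours of either model, whereas 53 were above 0 in the 6 cultures, and for small nucleolar RNA genes the numbers were 5 and 118. Pseudogenes took 4.94% to 5.34% of the TPM in MOC1E1 tumours and 9.12% to 9.48% in cultures, and mitochondrial genes took 6.92% to 8.05% and 2.18% to 3.19%. All 12 of the largest falls, led by Mir6236 at 6098, 7631 and 8152 TPM in culture, were listed at 0 in all 3 tumours. Each either lacked a protein-coding entry in RefSeq or was a gene model with a Gm name. Mir6236 was also listed at 0 in the MOC1 tumours. The largest changes named below are therefore those among protein-coding genes, a restriction chosen after the data were seen. It kept genes with a protein-coding entry in RefSeq and left out mitochondrial genes, such as mt-Nd3, and gene models with a Gm name. Genes named below beyond the largest changes of the whole table, of each list and between models were likewise chosen after their values were seen.

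Tumour library 3 stood apart from the other tumours. It differed by at least 1 on the log2 scale from library 1 in 686 genes and from library 2 in 599, against 294 between libraries 1 and 2 and 88 to 106 between cultures. Over all tested genes it was the highest tumour in 31.3% and the lowest in 35.3%. It was the highest of 3 for 27 of 27 tested interferon gamma-induced genes, 29 of 29 type I interferon-induced genes and 26 of 28 glycolysis and hypoxia genes. It was the lowest for 21 of 21 collagen and matrix genes, 11 of 11 fibroblast markers and 10 of 13 macrophage markers. The collagen and matrix list and the fibroblast list share members, among them Col1a1 and Col1a2.

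**Figure D1:**
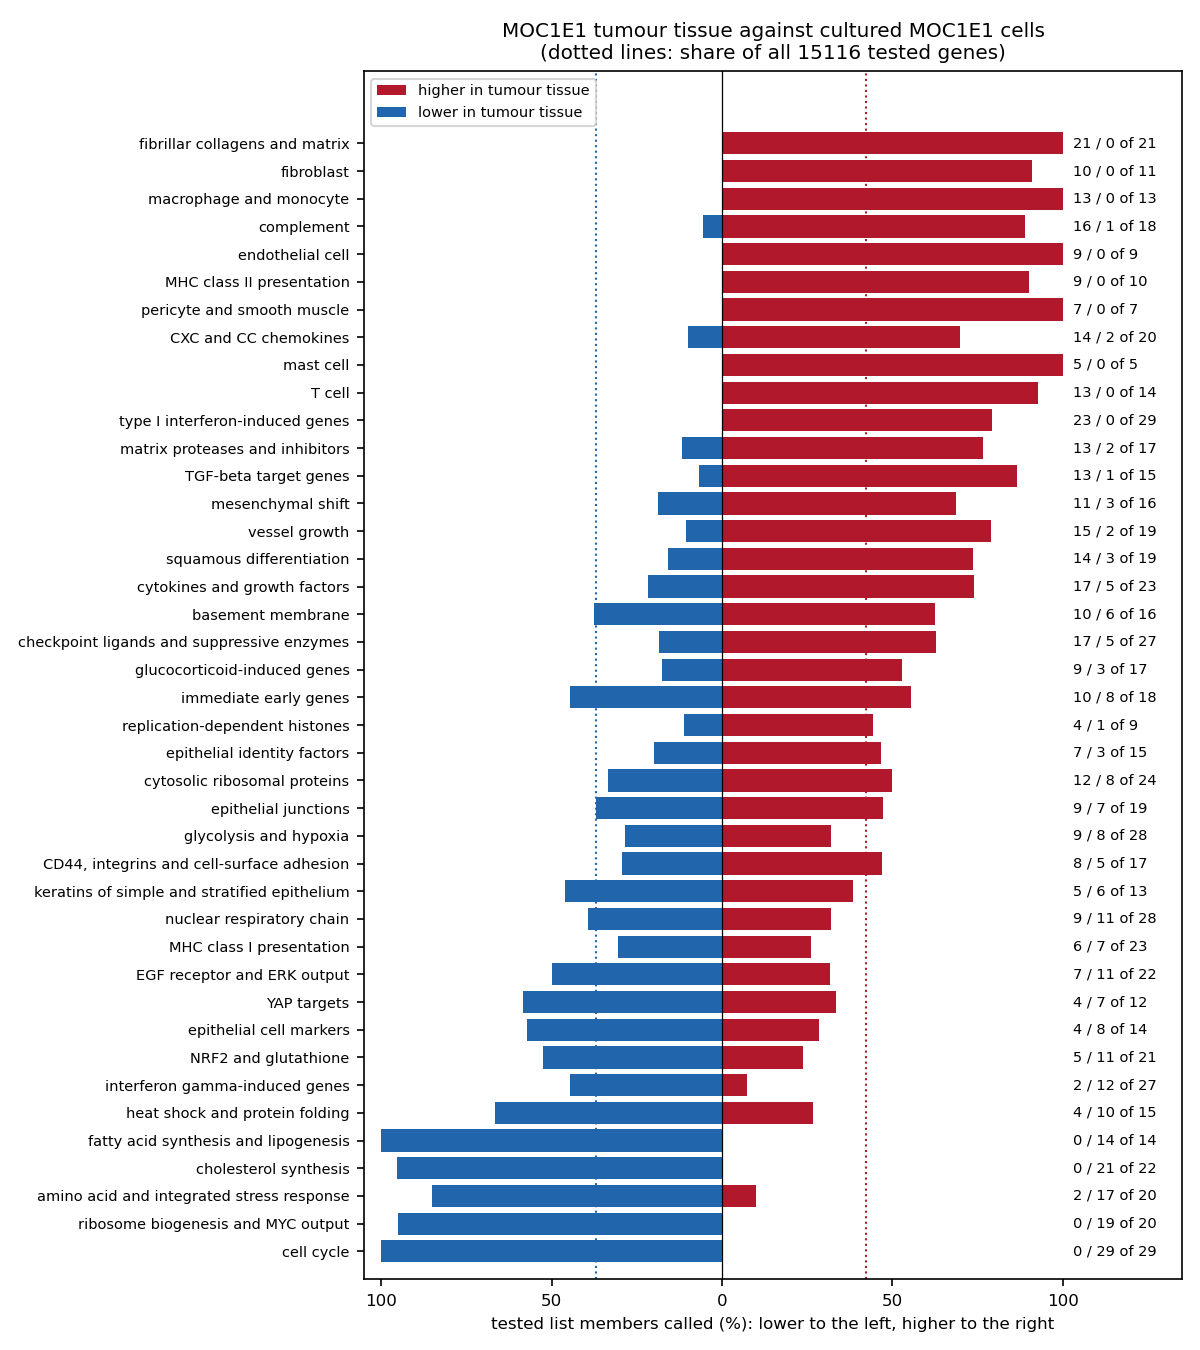
Share of the tested members of each gene list that were called higher (red, to the right) or lower (blue, to the left) in MOC1E1 tumours, with the counts higher / lower of tested beside each bar. Dotted lines mark the shares over all 15116 tested genes, 42.2% higher and 37.0% lower; matrix, macrophage and vessel lists lie far right and cell cycle and lipid synthesis lists far left.

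The largest rises were in the fibrillar matrix. Collagen type I alpha 1, Col1a1, stood at 684, 828 and 193 TPM in tumours 1, 2 and 3 and at 0.05, 0.21 and 0.06 in culture. Its difference of 8.76 (SE 0.50, adjusted p = 4.51e-06) was the largest rise among protein-coding genes, and tumour 3 was the lowest tumour. Col1a2 and Col3a1, the other main fibrillar chains, followed at 8.72 and 8.66. Postn, a matricellular protein of fibroblasts and wound stroma, read 362, 439 and 199 TPM in tumours against at most 0.07 in culture (8.28, SE 0.27), and the proteoglycan gene Bgn read 289, 304 and 90.8 against at most 0.25 (7.47). All 21 tested genes of the collagen and matrix list were higher in tumours, with a median of 5.52. The smallest rise of the list was that of fibronectin, Fn1, which the cultured cells also carried: 275, 219 and 123 TPM in tumours against 123, 113 and 124 (0.70, adjusted p = 0.043), with overlapping groups. The count was 20 or 21 under the alternatives run, with Fn1 losing its call (or, at a mean TPM of at least 10, with 1 member not tested), and without tumour 3 the median was 6.02.

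Fibroblast markers moved with the matrix genes, but both lists hold Col1a1 and Col1a2, so these are partly the same values. Of 11 tested, 10 were higher in tumours. Decorin (Dcn) read 33.7, 33.8 and 8.45 TPM and lumican (Lum) 27.8, 35.7 and 3.40, both small proteoglycans that organise collagen, and both were listed at 0 in every culture. Pdpn, which marks fibroblasts and also squamous cells at an invasive edge, was the member that was not called: 155, 153 and 145 TPM in tumours against 145, 151 and 147 in culture (0.03, SE 0.05). The summed TPM of the list was 2612, 3142 and 915 in tumours 1, 2 and 3 and 145.9 to 151.4 in cultures, where Pdpn made up nearly all of it. Pericyte and vessel genes followed: all 7 tested pericyte and smooth muscle markers and all 9 tested endothelial markers were higher. Rgs5, a pericyte regulator of G-protein signalling, read 31.2, 22.3 and 12.8 TPM and was listed at 0 in culture. Von Willebrand factor (Vwf), from endothelial cells, read 15.1, 10.4 and 11.2 against at most 0.14 (3.64, SE 0.16).

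Myeloid markers were the most abundant of the immune groups. The complement subunit genes C1qa, C1qb and C1qc, which tissue macrophages make, read 236, 219 and 175, 181, 167 and 117, and 140, 142 and 87.4 TPM in tumours 1, 2 and 3. In culture no C1q value exceeded 0.17 TPM, and the differences were 7.64, 7.21 and 6.88. Ctss, the lysosomal protease cathepsin S of antigen-presenting cells, read 218, 217 and 160 against 0.13 to 0.32 (7.30, SE 0.14, adjusted p = 6.86e-08). Apoe, the apolipoprotein of foamy macrophages and other cells, read 1157.5, 986 and 371 against 5.31 to 6.08 (6.82). All 13 tested macrophage and monocyte markers were higher, with a median of 3.78, and their summed TPM was 2005, 1830 and 912 in tumours against 12.9 to 16.1 in cultures.

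T cell markers were lower in level than macrophage markers and ordered the tumours the other way. Their summed TPM was 40.4, 58.9 and 111 in tumours 1, 2 and 3 against 6.85 to 8.59 in culture. The T cell receptor constant gene Trbc2 read 7.41, 9.01 and 22.2 TPM against at most 0.18 (3.53, SE 0.36), and Cd8a, the co-receptor of cytotoxic T cells, read 1.59, 3.37 and 10.8 and was listed at 0 in culture. Cd4, the helper co-receptor, was at 2.16, 1.82 and 2.41 and also listed at 0 in culture. Of 14 tested T cell markers, 13 were higher. The exception, the receptor zeta chain Cd247, read 1.14, 1.08 and 2.67 in tumours and 2.20 to 2.52 in culture (−0.40, adjusted p = 0.143).

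Markers of other leukocytes were at low levels in these tumours. Of 7 natural killer markers 5 did not pass the filter on low values, of 8 B and plasma cell markers 7, of 9 neutrophil markers 6 and of 10 dendritic cell markers 6. S100a8 and S100a9, calcium-binding proteins of neutrophils, read 4.45 to 16.6 and 5.89 to 19.5 TPM. Mast cell proteases were low but present: Tpsb2 read 7.29, 9.04 and 9.08 TPM and Mcpt4 4.26, 5.16 and 5.45, both listed at 0 in every culture. Some members of these lists were also present in culture. Fscn1, an actin bundler used as a dendritic cell marker, was lower in tumours (78.5, 86.8 and 71.0 against 210 to 259, −1.54), and so was Eomes, a natural killer factor (0.46 to 0.48 against 5.43 to 5.72, −2.17).

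**Figure D2:**
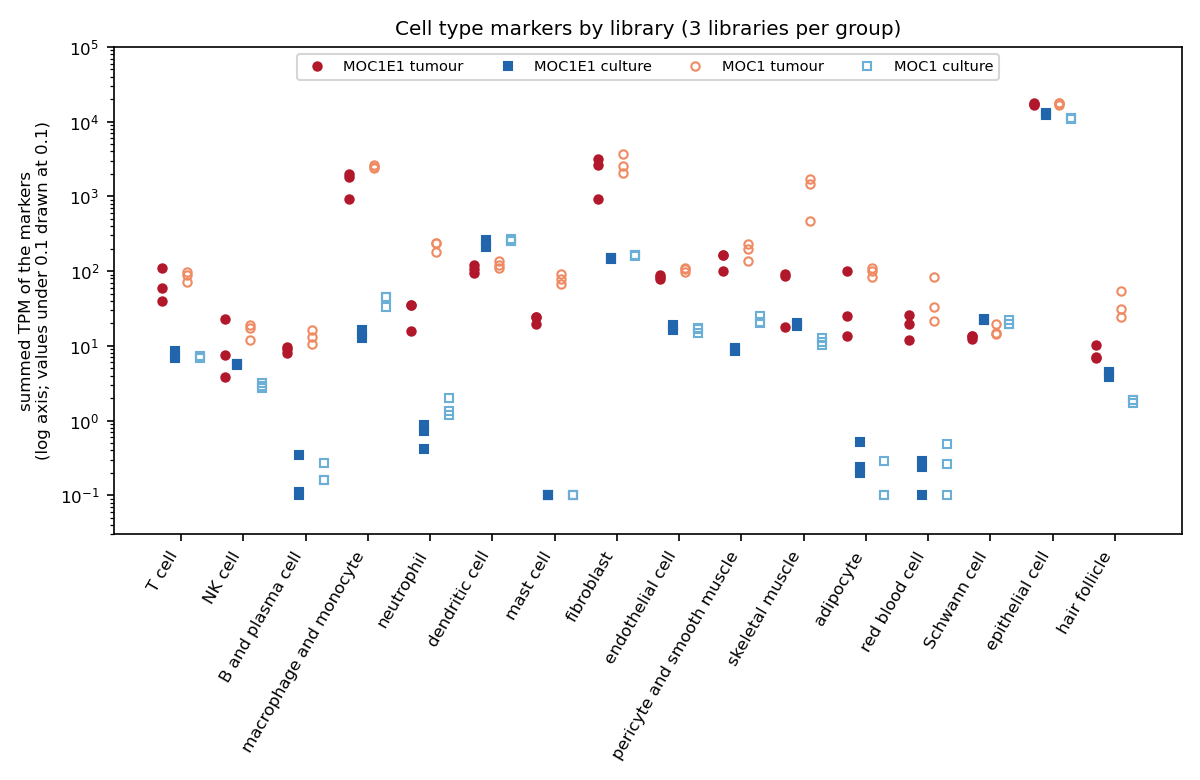
Summed TPM of each cell type's markers (log axis, values under 0.1 drawn at 0.1) in each library of the 4 groups, 3 points per group. Macrophage, fibroblast, mast cell and endothelial sums of both tumour groups lie above the cultures, while epithelial sums lie between 10917 and 18042 TPM in all groups.

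Single-cell libraries of tumour-infiltrating immune cells from MOC1E1 tumours gave the pooled level of the same genes in an immune cell preparation. The library from isotype-treated mice held 3473 cell barcodes and 17309104 unique molecular identifiers (UMIs, counted molecules), summed here and scaled to the library total as CPM, with no replicate. Of 11986 tested protein-coding genes, with those absent from the single-cell data counted as 0 in all shares here, 59.3% reached 10 CPM there. Of the 407 that were higher in bulk tumours by at least 3, 41.3% did, and 43.5% lay under 1 CPM against 18.4% of all. Low immune levels were not particular to these genes: of the 29 lower by at least 3, 27.6% reached 10 CPM and 48.3% lay under 1. The shares at 10 CPM for the 407 genes were 41.8% after anti-PD1 and 36.9% after anti-CTLA4, against 58.6% and 57.3% of all. C1qb (455 CPM), Ctss (1260) and Lyz2 (8347) were abundant in that library, Col1a1 was at 0.347 and Col3a1 at 0. Krtdap and Calml3, squamous genes described next, were also at 0. For comparison, the epithelial genes Krt14, Krt5 and Epcam, which leukocytes should lack, were at 0.924, 1.85 and 5.83 CPM. All cell types were pooled, the share of free RNA was not measured, and no doublet removal was done. Across the 3 treatments 52 barcodes occurred in more than 1 library.

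Epithelial markers stayed abundant in tissue, with summed TPM of 16857, 17297 and 18042 in tumours 1, 2 and 3 and 12361 to 13125 in culture. Krt14 and Krt5 made up most of these sums. The mean log2 level of the list went the other way, at 7.67 to 7.76 in tumours against 8.44 to 8.51 in culture. Of the 14 tested epithelial markers 4 were higher and 8 lower, and the keratins shifted. The basal keratin Krt14, which forms filaments with Krt5 in basal squamous cells, read 8906, 9275 and 9251 TPM in tumours against 4197, 3979 and 4302 in culture, so the groups were far apart (1.14, SE 0.07, adjusted p = 4.48e-06). Krt5 read 5868, 5895 and 6658 against 3638 to 3919 (0.70). Krt18, Krt8, Krt19 and Krt7, keratins of simple epithelium, were lower. Krt18 read 171, 150 and 161 TPM against 1361, 1360 and 1396 (−3.09, SE 0.06), Krt8, its partner, was at 291 to 341 against 1208 to 1220 (−1.97), and Krt19 at 40.5, 63.8 and 40.5 against 352 to 416 (−3.01). Krt7 was lower by the same pattern (−2.25). Of the 13 tested keratins 5 were higher and 6 lower. The wound keratin Krt6a was not called (989, 1183 and 1153 against 1113 to 1193), and reads of Krt6a and its near-identical copy Krt6b may be split uncertainly.

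Genes of squamous differentiation were mostly higher. Krtdap, a secreted protein of differentiating keratinocytes, read 341, 346 and 377 TPM in tumours against 1.48, 0.34 and 2.40 in culture (7.31, SE 0.31). Calml3, an epithelial calmodulin-like protein, read 166, 219 and 168 against 0.36 to 0.66 (6.90, SE 0.14), and Ly6d, a surface marker of stratified epithelium, 567, 599.9 and 544 against 7.85 to 9.35 (5.89). Wfdc18, a secreted protein with a whey acidic protein domain, read 272, 374 and 321 against 0.12 to 0.54 (8.0). These values differed little between tumours, while the collagen and matrix genes were lowest in tumour 3. Which cells carried these squamous genes was not tested. Of 19 tested squamous differentiation genes, 14 were higher and 3 lower, with a median of 1.58. The 3 lower genes were Krt4, a keratin of wet squamous lining (0.19 to 0.83 against 4.02 to 4.58, −1.94), Grhl3 (−1.40) and the cornified envelope gene involucrin, Ivl (1.36 to 2.21 against 3.77 to 4.81, −0.94).

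Junction genes went both ways, 9 of 19 higher and 7 lower. Of the higher members that belong to desmosomes, desmoplakin (Dsp) read 356, 393 and 383 TPM against 180 to 194 (1.00), and desmocollin 3 (Dsc3) 43.9, 53.9 and 30.0 against 8.18 to 9.55 (2.08). Among the lower members, the tight junction gene Cldn7 read 27.4, 24.7 and 27.9 against 204 to 211 (−2.91, SE 0.06) and occludin (Ocln) 1.66, 2.44 and 2.01 against 19.8 to 21.6 (−2.85). E-cadherin (Cdh1) was lower by less (204 to 212 against 312 to 328, −0.63). Epcam was called lower as well (438, 448 and 481 against 527 to 532, −0.22), but its sign turned under quantile normalization (0.07). Among identity factors, Trp63, the p63 factor of basal squamous cells, was higher (113, 125 and 131 against 45.3 to 48.1, 1.37), as were Pitx1 (2.75) and Tfap2c (2.47). Ovol1 (−1.27) and Elf3 (−1.03) were lower, and Grhl2 was not called (33.8 to 39.9 against 40.4 to 42.3).

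The largest protein-coding fall outside a near-identical copy was Msln, which codes for mesothelin, a surface glycoprotein of mesothelium and some carcinomas. It read 5.85, 5.32 and 6.35 TPM in tumours and 275, 275 and 276 in culture (−5.34, SE 0.07, adjusted p = 1.65e-08), and the values within each group lay close together. Il24, a cytokine of the interleukin 10 family, read 0.19, 1.24 and 4.85 against 65.2 to 75.5 (−4.86, SE 0.51). Npnt, a basement membrane ligand of integrins, fell from 36.7 to 37.4 in culture to 0.63 to 1.93 (−4.06), and F2rl1, a receptor cut by proteases, from 47.7 to 48.9 to 2.12 to 3.31 (−3.73). Ptgs2, the inducible cyclooxygenase, read 3.54, 2.43 and 1.07 against 30.0 to 34.8 (−3.37). Rpl32l, Hmga1b and Prl2c2 also ranked among these falls, and their counts are uncertain because near-identical copies exist.

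Genes of the mesenchymal shift did not move together. Vimentin (Vim), the intermediate filament of mesenchymal cells, was lower in tumours although fibroblast and leukocyte markers were higher: 511, 470 and 539 TPM against 1566, 1594 and 1677 (−1.67, SE 0.07). Sparc, a matricellular protein, read 836, 913 and 275 against 3.13 to 3.76 (7.05), and Tgfbi 93.6, 113 and 128 against 4.23 to 5.43 (4.23). The transcription factors Snai2 (90.2 to 107 against 25.8 to 26.1, 1.88) and Twist1 (52.0 to 61.2 against 11.3 to 11.6, 2.18) were higher. Twist2, a further factor of the list, was lower (−0.84 without tumour 3). Of 16 tested genes of the list 11 were higher and 3 lower, with a median of 1.83. Fibroblast markers rose in the same libraries, and their part in these differences was not tested.

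Basement membrane genes divided. Col4a1 and Col4a2, the main chains of its network, were lower in tumours: Col4a1 read 60.7, 47.7 and 45.8 TPM against 364 to 373 (−2.83, SE 0.10). Col7a1, the anchoring fibril collagen below squamous epithelium, was higher (118, 122 and 161 against 5.67 to 9.26, 3.97), as was the hemidesmosome collagen Col17a1 (262 to 310 against 78.3 to 92.9, 1.74). Laminin chain Lama4, made by vessels and stroma, read 24.6, 24.2 and 21.1 against 0.33 to 0.56 (4.11). Of 16 tested genes 10 were higher and 6 lower. Of 17 tested matrix proteases and inhibitors 13 were higher. Cathepsin K (Ctsk) read 46.4, 49.7 and 11.3 against at most 0.16 (4.80). The urokinase receptor Plaur was lower (16.9 to 18.9 against 55.1 to 57.7, −1.61).

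Receptors for matrix changed in both directions. Cd44, the hyaluronan receptor, was lower in tumours (67.0, 79.5 and 83.0 TPM against 158 to 166, −1.07), and so was the laminin-binding integrin Itga3 (117 to 122 against 358 to 394, −1.64). Itga5, the fibronectin receptor chain, was higher (11.3 to 14.3 against 2.18 to 2.22, 2.13). Itga6 was at 258 to 264 TPM in tumours and 262 to 268 in culture and was not called. Vcam1, an adhesion molecule of activated vessels and stroma, read 13.1, 13.3 and 21.6 against 0.01 to 0.13 (3.96). Of 17 tested genes 8 were higher and 5 lower.

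The genes of division were lower in tumours as a group. All 29 tested cell cycle genes were lower, with a median of −1.83. Rrm2, the regulated subunit of ribonucleotide reductase, read 28.3, 35.0 and 34.8 TPM against 340 to 346 (−3.36, SE 0.09), and the spindle checkpoint kinase Bub1 read 7.69, 12.1 and 13.2 against 120 to 130 (−3.40). Mki67, the proliferation marker, read 34.2, 45.2 and 49.3 against 146 to 159 (−1.83). E2f1, a driver of S phase genes, had the smallest fall of the list (6.95 to 8.87 against 14.9 to 15.9, −0.89). Tumour 1 was the lowest tumour for Bub1, Mki67 and Top2a. Replication-dependent histones did not follow: of 9 tested 4 were higher and 1 lower, led by the variants Hist1h2bc (58.1, 62.4 and 87.2 TPM against 5.06 to 5.66, 3.45) and Hist1h1c (2.69).

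Ribosome production genes were lower along with the cell cycle. Of 20 tested, 19 were lower, with a median of −1.79. Cad, the enzyme that starts pyrimidine synthesis, read 36.2, 41.5 and 23.3 TPM against 162 to 196 (−2.40), and Dkc1, the pseudouridine synthase dyskerin, 36.5 to 38.2 against 193 to 200.3 (−2.37). Myc itself differed by less (94.9, 106 and 100.4 against 142 to 160, −0.58). Ppan was the member not called (52.2 to 60.1 against 54.1 to 59.8). The cytosolic ribosomal proteins showed no such common direction, with 12 of 24 higher and 8 lower. Rpl27 (2133 to 2395 against 821 to 873, 1.42) and Rpl7 (1595 to 1669 against 2820 to 3130, −0.88) stood at the ends, and both have many pseudogenes.

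Lipid synthesis was lower throughout the lists. Of 22 tested cholesterol synthesis genes 21 were lower, with a median of −1.49. Fdps, which makes farnesyl diphosphate, read 64.0, 77.1 and 90.8 TPM against 355 to 384 (−2.26). Tm7sf2 was not called (4.25 to 8.95 against 4.27 to 6.50). All 14 tested fatty acid synthesis genes were lower, with a median of −1.40. The desaturase Scd2 read 84.5, 96.9 and 129 against 380 to 438 (−2.0), Acly, which makes cytosolic acetyl-CoA, 51.9 to 64.1 against 189 to 213 (−1.81), and Fads1 had the smallest fall among the well-expressed members (47.9 to 72.1 against 86.3 to 90.5, −0.54).

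Amino acid supply genes were lower too. Of 20 tested genes of the amino acid and integrated stress response, 17 were lower and 2 higher, with a median of −1.56. Mthfd2, the mitochondrial folate enzyme, read 11.9, 13.5 and 13.7 TPM against 109 to 113 (−3.0, SE 0.07), and Slc7a5, the importer of large neutral amino acids, 17.9 to 19.8 against 142 to 153 (−2.93). Asns, asparagine synthetase, read 41.5, 45.2 and 58.1 against 171 to 183 (−1.88). The 2 higher genes were the stress-induced inhibitors of mTORC1 signalling Ddit4 (185, 230.3 and 247 against 46.5 to 70.0, 1.87) and Sesn2 (9.00 to 11.3 against 4.45 to 5.04, 0.99).

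Chaperones fell with these groups. Of 15 tested heat shock and folding genes 10 were lower and 4 higher. Hsp90aa1, the inducible cytosolic HSP90, read 211, 222 and 222 TPM against 2248, 2187 and 2169 (−3.33, SE 0.05, adjusted p = 2.39e-08), and Hspd1, the mitochondrial chaperonin, 163 to 213 against 739 to 789 (−2.04). The small heat shock gene Hspb1 was higher (499 to 625 against 338 to 369, 0.69). Hspe1 was called higher by a small amount (318, 340 and 341 against 277 to 322, 0.18), and its sign turned under median-ratio scaling (−0.07). Redox genes of the NRF2 list were lower in 11 of 21 and higher in 5. Gclc, which starts glutathione synthesis, read 8.96 to 13.9 against 60.8 to 64.3 (−2.40), and Txnrd1, thioredoxin reductase, 38.5 to 48.1 against 170 to 186 (−2.0). Gpx3, a secreted peroxidase, was high in tissue (191, 190 and 50.3 against at most 0.06, 6.92) and had its lowest tumour value in library 3.

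Genes that answer to the additives of the medium did not fall as 1 group. Among EGF receptor and ERK output genes 11 of 22 were lower and 7 higher. The EGF family ligands amphiregulin (Areg, 2.72 to 5.31 TPM against 26.1 to 29.7, −2.45) and epiregulin (Ereg, 1.67 to 2.65 against 11.6 to 13.8, −2.10) were lower, and cyclin D1 (Ccnd1) read 220.1 to 263 against 577 to 609.7 (−1.28). The feedback inhibitor Spry1 was higher (37.8 to 57.1 against 13.5 to 15.4, 1.69), and Dusp6 was not called (403, 399.6 and 310.1 against 337 to 386). Of 17 tested glucocorticoid-induced genes 9 were higher and 3 lower. Fkbp5, a chaperone that the glucocorticoid receptor induces, was lower (13.2 to 18.0 against 74.8 to 84.6, −2.27). Angptl4, an inhibitor of lipoprotein lipase, was higher (32.2 to 51.7 against 0.81 to 1.18, 4.39), as was Cebpd (28.7 to 31.0 against 1.79 to 2.37, 3.30).

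TGF-beta target genes were mostly higher, 13 of 15 tested. Pmepa1, a feedback inhibitor of the pathway, read 158, 139 and 159 TPM against 12 to 13.2 (3.50, SE 0.08), and the cell cycle inhibitor Cdkn2b 56.5 to 74.4 against 12.2 to 14.7 (2.19). The list also holds Col1a1. Id3 was the lower member (118, 59.8 and 57.8 against 122 to 145, −0.82), and Id1 was not called. The call of Id3 was lost under quantile normalization (−0.54), without tumour 2 (−0.67) or 3 (−0.64), and without culture S11 (−0.84) or S12 (−0.75). YAP targets went both ways, with 4 of 12 higher and 7 lower: Ccn2 (259 to 381 against 67.3 to 70.2, 2.18) was higher, and the receptor kinase Axl (75.0 to 86.5 against 236 to 257, −1.60) was lower. Immediate early genes, which respond within minutes to handling and growth factors, split into 10 higher and 8 lower of 18. Egr3 and Egr2 led the rises, at 2.39 and 2.21 without tumour 3, and Jund (170 to 188 against 40.2 to 59.3, 1.90) was also higher. Atf3 (4.95 to 7.50 against 36.5 to 45.0, −2.63) and Fos (30.2 to 42.6 against 91.6 to 132, −1.67) were lower.

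The interferon lists are described next. The promoters of members of each list are shown first, with matches to 2 interferon response motifs. Each line is RefSeq sequence (GRCm38.p6), in the direction of the gene and upstream of its start, with matches in capitals. The gamma-activated site (GAS) was searched as TTCNNNGAA, and the core of the interferon-stimulated response element (ISRE) as a pair of GAAA separated by any 2 bases, on both strands, so that it reads as a pair of TTTC on the other strand. Overlapping ISRE matches run together in 1 stretch of capitals.
Irf1, GAS, chr11:53769904-53769952, plus strand: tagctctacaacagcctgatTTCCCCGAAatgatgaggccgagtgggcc
Gbp2, ISRE, chr3:142620584-142620633, plus strand: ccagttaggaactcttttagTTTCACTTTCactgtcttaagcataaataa
Tgtp1, ISRE, chr11:48992294-48992343, minus strand: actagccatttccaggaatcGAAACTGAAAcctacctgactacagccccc
Cxcl10, ISRE, chr5:92349073-92349122, minus strand: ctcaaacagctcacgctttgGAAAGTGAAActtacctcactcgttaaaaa
Ifit1, ISRE, chr19:34640784-34640833, plus strand: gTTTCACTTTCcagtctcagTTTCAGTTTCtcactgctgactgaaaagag
Ifit3, ISRE, chr19:34583387-34583436, plus strand: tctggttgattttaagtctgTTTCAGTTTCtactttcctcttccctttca
Oas1a, ISRE, chr5:120907526-120907559, minus strand: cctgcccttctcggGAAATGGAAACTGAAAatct
Isg15, ISRE, chr4:156200855-156200904, minus strand: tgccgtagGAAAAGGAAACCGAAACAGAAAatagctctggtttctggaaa

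The first 4 genes are from the interferon gamma list and the other 4 from the type I list. Over the 27025 genes with a promoter in the reference table, 8.13% held a GAS match and 3.46% an ISRE match in the 250 bases before the start. Of the 16 interferon gamma-induced genes with a promoter there, 7 held a GAS match and 12 an ISRE match, and of 21 type I interferon-induced genes 3 and 10 did. The ISRE match thus did not mark the type I list: its share was 75.0% in the interferon gamma list and 47.6% in the type I list. A match is a description of the letters and was not tested as a site.

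By the mean log2 level of the interferon gamma list, tumours 1 and 2 lay below the cultures whose names carry plusifng and tumour 3 did not. This level was 3.90, 4.08 and 5.69 in tumours 1, 2 and 3 and 5.33 to 5.35 in cultures. By summed TPM all 3 tumours lay below the cultures, at 792, 861 and 3011 against 3690 to 3764. Irf1, the factor that relays the signal, read 56.5, 65.7 and 130 TPM in tumours against 260, 229 and 278 (−1.69, SE 0.29, adjusted p = 0.0011). Gbp2, a guanylate-binding protein that attacks membranes of intracellular pathogens, read 79.1, 81.2 and 324 against 571, 557 and 553 (−2.12, SE 0.51), and Gbp4 3.85, 6.72 and 53.6 against 111 to 122 (−3.21, SE 0.81, adjusted p = 0.00797). Tgtp1, an immunity-related GTPase with a near-identical copy in Tgtp2, read 38.4, 43.4 and 254 against 657 to 692 (−3.15). Tumours 1 and 2 were far below culture for each of these genes, and tumour 3 lay between. Of 27 tested list members 12 were lower, 2 higher and 13 not called, with a median of −0.67, and the lower share is near the 37.0% of all genes. Without tumour 3 the counts were 20 and 3 and the median was −1.08, and in a test against a log2 difference of 1 only 1 member was lower. The 2 higher members were Cxcl9, a chemokine that draws T cells (25.5, 32.1 and 146 against 9.61 to 10.2, 2.22), and Socs1, a feedback inhibitor (7.44, 8.94 and 14.4 against 2.78 to 4.25, 1.33).

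The type I interferon list was higher in the same tumours. Ifi27l2a read 243, 333 and 556 TPM against 0, 0.30 and 0.14 (8.29, SE 0.28, adjusted p = 5.72e-07). Trim30a, a regulator of innate signalling, read 15.7, 16.9 and 44.9 against 0.29 to 0.40 (4.16), and Oas1a, an oligoadenylate synthetase that senses double-stranded RNA, 39.0, 39.5 and 66.3 against 2.67 to 3.22 (3.60). The translation inhibitor Ifit1 read 25.4, 25.9 and 57.9 against 4.53 to 5.99 (2.46), and the ubiquitin-like Isg15 253, 197 and 451 against 68.5 to 80.3 (1.94). All 3 tumours exceeded all 3 cultures for each of these 5 genes. Of 29 tested members 23 were higher and none lower, with a median of 1.97. Without tumour 3 the counts were 23 and 3 and the median was 1.6; Bst2, an antiviral tether, was then among the lower (−0.47; with it, 158, 158 and 389 against 211 to 227). Ifi27l2a reached 2296 CPM in the immune library, and summed T cell and macrophage markers were higher in the same tumours. The part of these cells in the interferon lists was not tested.

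Class I antigen presentation showed no common direction. The class I heavy chains H2-K1 (3320, 3744 and 5895 TPM against 4013 to 4124) and H2-D1 (1547, 1580 and 2288 against 1787 to 1964) were not called, with tumour 3 the highest. Of 23 tested class I presentation genes 6 were higher and 7 lower, and without tumour 3 15 were lower. H2-T23 (348 to 652 against 107 to 114, 2.00) was the largest rise. The peptide trimming enzyme Erap1 (14.5 to 25.4 against 46.3 to 52.5, −1.27) and the lectin chaperone Canx (199.99 to 244 against 543 to 563, −1.35) were the largest falls. Genes of the H2-Q cluster are near-identical and their levels are uncertain.

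Class II genes were higher and even across the tumours. H2-Ab1, a class II beta chain, read 662, 634 and 661 TPM against 59.2, 64.8 and 67.1 (3.34, SE 0.06, adjusted p = 5.45e-08). Cd74, the invariant chain that guides class II molecules, read 1056, 1049 and 1074 against 143 to 155 (2.83). Of 10 tested class II presentation genes 9 were higher, with a median of 2.57. Ciita, the master activator of the class, was not (5.78, 6.39 and 10.2 against 9.25 to 11.2, −0.42, adjusted p = 0.0867). In the immune library Cd74 was at 6572 CPM and H2-Ab1 at 1616. The macrophage marker sum was lowest in tumour 3, where H2-Ab1 and Cd74 were close to their levels in the other tumours. Tumour 3 was also the highest tumour for the T cell marker sum and the interferon lists. The part of each cell type in the class II levels was not tested.

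**Figure D3:**
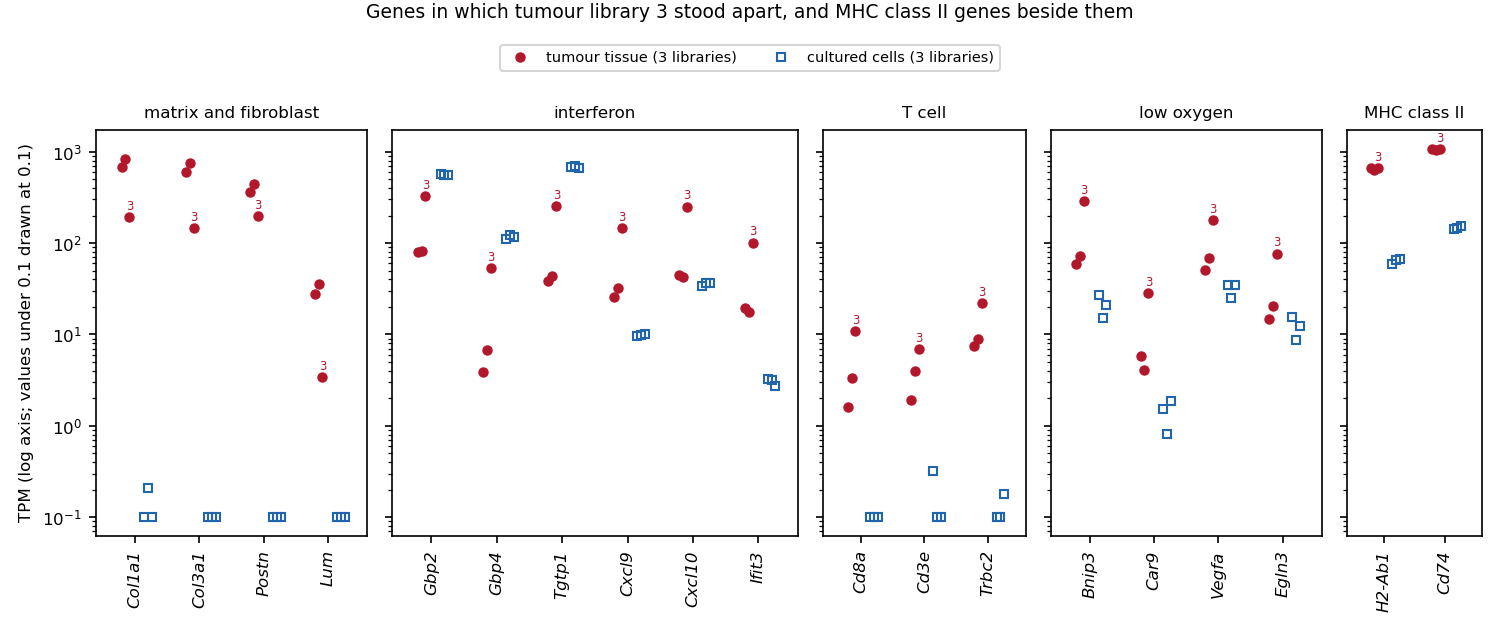
TPM (log axis, values under 0.1 drawn at 0.1) in each MOC1E1 tumour (filled, library 3 numbered) and culture (open) library. Library 3 is lowest for Col1a1, Col3a1, Postn and Lum, highest for the interferon, T cell and low-oxygen genes, and level with the others for H2-Ab1 and Cd74.

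Chemokines were mostly higher in tissue, 14 of 20 tested. Ccl8 and Ccl7 code for monocyte attractants. Ccl8 read 45.5, 41.3 and 113 TPM and Ccl7 8.92, 12.6 and 34.1, and both were listed at 0 in every culture. Ccl2, which recruits monocytes, read 4.79, 8.54 and 33.4 against at most 0.05 (3.58). Ccl5, a T cell product, read 13.9, 22.4 and 47.0 against 0.71 to 0.90 (3.81). The 2 lower members both code for neutrophil attractants: Cxcl1 read 26.7, 39.3 and 31.5 against 175 to 198 (−2.48), and Cxcl5 11.6 to 12.9 against 53.4 to 69.5 (−2.26).

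Cytokines and growth factors were higher in 17 of 23 tested and lower in 5. Il1rn, the interleukin 1 receptor antagonist, read 35.6, 30.2 and 56.1 TPM against 0.91 to 1.18 (4.28), whereas Il1a read 0.54 to 0.75 against 3.93 to 5.04 (−1.69). Pdgfb, which recruits pericytes, read 45.9, 38.3 and 44.5 against 2.18 to 2.47 (3.72), and Tgfb3 101, 84.4 and 53.0 against 6.12 to 6.54 (3.42). Csf3, the neutrophil growth factor, was lower (0.67 to 1.09 against 5.61 to 7.81, −2.08). Of the 27 tested checkpoint ligands and suppressive enzymes 17 were higher and 5 lower. Cd200, a ligand that restrains myeloid cells, read 57.9, 23.6 and 36.7 against at most 0.08 (5.21), and Vsir, the VISTA gene, 13.8 to 23.1 against 0.26 to 0.73 (3.70). Cd274, which codes for PD-L1, was not called (3.12, 3.74 and 9.03 against 7.56 to 9.02, −0.65, adjusted p = 0.0969). Arg1, arginase, was not called (31.0 to 43.3 against 35.4 to 42.8). Tigit, an inhibitory receptor of T cells, was lower in tumours (1.54, 3.50 and 4.23 against 16.1 to 18.1, −2.19).

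Complement genes were higher in 16 of 18 tested, with a median of 3.16. Beyond C1q, the protease subunit gene C1s1 read 96.4, 86.0 and 213 TPM against 0.99 to 1.57 (5.71, SE 0.33), and it was at 0.116 CPM in the immune library. The inhibitor gene Serping1 read 28.3, 25.3 and 30.1 and was listed at 0 in culture. C3, the central component, read 23.7, 28.6 and 44.4 against 1.31 to 3.22 (3.42). Clusterin (Clu) was the lower member (14.5 to 17.5 against 29.6 to 31.3, −0.85), and Cd55, a brake on complement, was not called.

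The list of glycolysis and hypoxia genes had no common direction, with 9 of 28 tested members higher and 8 lower. Bnip3, a mitophagy receptor, read 58.5, 72.0 and 289 TPM against 15.2 to 26.8 (2.33, SE 0.57), Car9, carbonic anhydrase 9, 5.79, 4.08 and 28.3 against 0.82 to 1.87 (2.09), and Vegfa, the vessel growth factor, 50.9, 68.6 and 177 against 25.0 to 34.9 (1.43). Tumour 3 stood far above the other tumours for these 3 genes. The glycolytic enzymes Eno1 (1382 to 1839 against 2647 to 2783, −0.83) and Pkm (851 to 1250 against 1645 to 1802, −0.84) were lower, and Ldha (997, 1000.5 and 1483 against 1120 to 1229) was not called. Without tumour 3 the counts were 9 and 11. In the same reference promoters the core of the hypoxia response element (ACGTG or CACGT) occurred in 16 of the 28 list members with a promoter, against 18.5% of all genes. It occurred in 5 of 8 members called higher, 1 of 8 called lower and 9 of 10 not called. Of 19 tested vessel growth genes 15 were higher, led by Plvap, which builds the diaphragms of leaky capillaries (35.5, 27.3 and 25.2 against 0.03 to 0.19, 4.76). The co-receptor genes Nrp1 (−1.34) and Nrp2 (−0.99) were lower.

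Nuclear genes of the respiratory chain had no common direction: 9 of 28 were higher and 11 lower, and under median-ratio scaling 5 and 18. Ndufa1 (165 to 197 TPM against 45.4 to 56.5, 1.84) and Cox6c (461 to 496 against 183 to 213, 1.29) led the rises, and Uqcrc2 (97.6 to 98.6 against 275 to 288, −1.50) and Cyc1 (105 to 108 against 272 to 283, −1.37) the falls. Markers of neighbouring tissue varied between the tumours. Skeletal muscle markers summed to 86.9, 90.4 and 17.7 TPM in tumours and 18.5 to 20.4 in culture, and adipocyte markers to 25.1, 13.6 and 102 against 0.20 to 0.51, so tumour 3 was lowest for muscle and highest for fat markers.

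The same contrast in MOC1 was used to test which of these differences were larger or smaller in MOC1E1. In both models the tumour and culture tables coincide with tissue, so a constant shift between tables on the log scale cancels when the MOC1 difference is taken from the MOC1E1 difference. This difference between models was called in 16.8% of 16813 tested genes, 10.2% positive and 6.61% negative. The positive share of these calls was 60.7%, and 47.0% under median-ratio scaling. Of 14601 genes tested in all comparisons, 5071 were higher in tumours of both models and 4875 lower in both. A further 118 were higher in MOC1E1 and lower in MOC1, and 53 the reverse. In MOC1 alone 78.8% of genes were called, 40.3% higher in tumours and 38.5% lower. The 2 models share no library.

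Interferon genes differed between the models in their culture levels. Among type I genes, Ifit1 averaged 97.9 TPM in MOC1 cultures and 54.6 in MOC1 tumours, against 36.4 in MOC1E1 tumours and 5.35 in MOC1E1 cultures, a difference between models of 3.30. Ifit3 (3.66), Ifit2 (3.46) and Ifi44 (4.19) behaved likewise. Of 29 tested type I genes 21 were called higher and none lower in this comparison, with a median of 1.87, and 22 without tumour 3. For interferon gamma-induced genes the counts were 7 and 0 of 27. Nos2, the inducible nitric oxide synthase, averaged 83.5 TPM in MOC1 cultures and 2.74 in MOC1E1 cultures, with 0.55 and 0.46 in the tumours (4.40). Gbp10 averaged 218 and 7.95 in the cultures (3.82), and belongs to a cluster of near-identical genes. Without tumour 3 the counts for the interferon gamma list were 9 and 5.

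**Figure D4:**
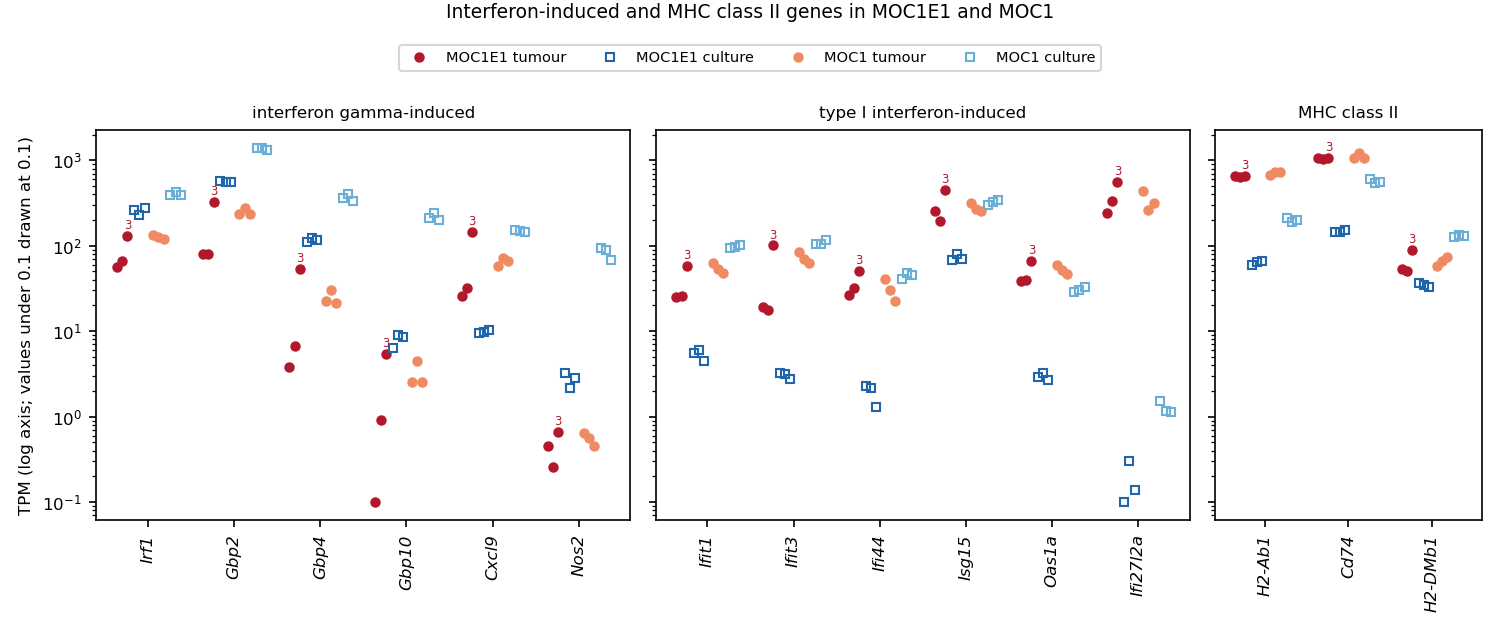
TPM (log axis, values under 0.1 drawn at 0.1) of interferon-induced and class II genes in MOC1E1 and MOC1 tumours (filled) and cultures (open), 3 libraries each, with MOC1E1 tumour library 3 numbered. MOC1 cultures lie above MOC1E1 cultures for every gene drawn, and the tumours of both models overlap for every gene drawn except H2-Ab1.

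Class II genes, secreted factors and amino acid genes also differed between models. H2-Ab1 averaged 708 TPM in MOC1 tumours and 201 in MOC1 cultures, and its difference between models was 1.52; 8 of 11 tested class II genes were called higher and none lower. Of 27 tested cytokines and growth factors 14 were higher and 1 lower. The amino acid list had 15 of 21 higher and none lower, with a median of 0.78: Asns averaged 347 TPM in MOC1 cultures and 178 in MOC1E1 cultures (1.28). Sparc read 89.6 TPM on average in MOC1 cultures against 3.51 in MOC1E1 cultures, with 763 and 675 in the tumours (4.0). C1s1 (48.9 against 1.35 in the cultures, 3.93), Serpina3g (46.3 against 0.11, 4.17) and the retinol-binding protein receptor gene Stra6 (67.7 against 0.67, 3.98) followed the same layout.

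In the other direction, some squamous genes and the muscle markers had a lower difference in MOC1E1 than in MOC1. Krt13, a keratin of wet squamous lining, read 4.92, 7.41 and 2.38 TPM in MOC1E1 tumours and averaged 213 in MOC1 tumours, with 3.85 and 4.53 in the cultures (−5.08). Krt4 averaged 0.43 in MOC1E1 tumours and 7.74 in MOC1 tumours (−3.74). Krt19 was lower in MOC1E1 tumours than in culture but averaged 451 and 615 TPM in MOC1 tumours and cultures (−2.56). Of 21 tested squamous differentiation genes 10 were lower and 3 higher, among them Klk8, a protease of the upper epidermis (2.96). All 10 skeletal muscle markers were lower: Acta1 read 16.9, 22.1 and 0.68 TPM in MOC1E1 tumours (−5.20). The summed muscle markers were 472, 1447 and 1701 TPM in MOC1 tumours, above the 86.9, 90.4 and 17.7 of the MOC1E1 tumours. All 6 tested neutrophil and all 6 mast cell markers were lower as well. S100a8 averaged 10.1 TPM in MOC1E1 tumours and 90.9 in MOC1 tumours (−3.17), and Tpsb2 8.47 and 30.9 (−1.71). The part of muscle and leukocytes in the other differences between models was not tested.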

How the data were processed

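Gene levels were deposited as TPM, 1 table for tumours and 1 for cultures; Trimmomatic 0.36 and kallisto 0.46.0 are named in the submitters' processing notes. The single-cell files hold the deposited UMI counts of the authors, with Cell Ranger 3.0.2 named in the same notes. No source used here names the genome build or annotation behind the TPM. Sample columns were assigned to groups by name, so replicates carry no label of their own.

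Genes with TPM of at least 1 in at least 3 libraries of a comparison were tested on log2(TPM + 1) with limma 3.58.1 (R 4.3.3, empirical Bayes with trend), with Benjamini-Hochberg adjustment over all tested genes and a threshold of 0.05. The difference between models was a contrast over the 12 libraries. The tables were normalized separately. UMI counts were summed per library to CPM. The code was tested on simulated data. Of 55573 Ensembl genes 55394 had a symbol. Results of a few list members are not reported here. For duplicated symbols the entry with the higher mean TPM was used.

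Named genes were the 12 largest rises and falls with no overlap and mean TPM of at least 10, up to 2 rises and 2 falls per list with the member of smallest difference, and the 8 largest differences each way between models. The members and lists were chosen with earlier results of these data known. Alternatives changed the pseudocount, filter, scaling, test and libraries; a protein-coding restriction was added after seeing the data.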

Additional observations from a re-analysis of the deposited data

Results flagged for a closer look

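The tumour minus culture difference was called higher in MOC1E1 than in MOC1 for 1717 genes and lower for 1111, by the limma contrast between the models. Among genes with mean TPM of at least 10, the largest positive differences on the log2 scale were 4.40 for Nos2, 4.36 for the gene model Gm43302, 4.19 for Ifi44, 4.17 for Serpina3g, 4.0 for Sparc, 3.98 for Stra6, 3.93 for C1s1 and 3.82 for Gbp10. For each of these 8 genes the MOC1 cultures had higher levels than the MOC1E1 cultures. The largest negative differences were −5.26 for Tnnc2, −5.20 for Acta1, −5.08 for Krt13, −4.97 for Ckm, −4.73 for the pseudogene Rps12-ps4, −4.56 for Pvalb, −4.53 for Tnnt3 and −4.51 for Myl1. Of these, 6 are skeletal muscle genes, and their levels were high in the MOC1 tumours.

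Other list members moved in opposite directions in the models, by at least 0.5 in each. In MOC1E1 tumours but not MOC1 tumours, levels were above culture for Ifit3 (difference between models 3.66), Ifit2 (3.46), Cxcl9 (3.38), Ifit1 (3.30), Klk8 (2.96), the vessel receptor gene Flt1 (2.68), Herc6 (1.97), H2-DMb1 (1.81), the glycolytic gene Aldoc (1.48) and the costimulatory ligand gene Cd80 (1.45). The reverse held for Krt4 (−3.74), Gstm1 (−2.19), Krt80 (−1.83), Ndufa4 (−1.72) and Id3 (−1.54). Groups of 3 libraries are too small for the search for single outlying samples.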

How the results depend on the processing

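Of 219 named results, 144 kept their direction and their side of the threshold under every alternative run. Rescaling over shared genes changed nothing, because both tables hold the same genes. Median-ratio scaling moved the median of all genes from 0.086 to −0.14. With a mean TPM of at least 10, fewer genes were tested, and 3232 were called higher in MOC1E1 tumours, 3130 higher in MOC1 tumours and 517 lower in the difference between models. A test against a log2 difference of 1 called 2245 higher and 1915 lower in MOC1E1, 2436 and 2101 in MOC1, and 98 and 49 between models. Leaving out each library in turn gave 11054 to 12105 calls in MOC1E1 and 2031 to 3031 between models. The direction turned for Epcam (0.0739) under quantile normalization and for Hspe1 (−0.0673) under median-ratio scaling; the cause was not tested. Without tumour 3, Hspe1 and Id3 (−0.64) lost their calls, and Bst2 (−0.47), Cxcl16 (−0.27), Ddit3 (−0.45), Ldha (−0.23), Mb (−0.33) and Sprr1b (−0.77) were called lower. No paired analysis was possible because the table columns carry no replicate numbers that match those in the labels. Depth is unknown for TPM, so low levels have no counting interval.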
